A study of Mus musculus with 8 samples.

Results

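The MS4A genes of mouse chromosome 19 encode small tetraspan membrane proteins of leukocytes, and 8 of them were described in stimulated alveolar macrophages that lacked or carried BATF2. They were taken by symbol (Ms4a4a, Ms4a4b, Ms4a4c, Ms4a6b, Ms4a6c, Ms4a6d, Ms4a7 and Ms4a8a), and each symbol matched 1 row, 8 of the 48709 genes in the deposited table. Alveolar macrophages reside in the air spaces of the lung. Primary cells from Batf2-/- mice were set against cells from WT mice of the C57BL/6J strain. The sources used here give neither the allele nor the strain background of the Batf2-/- mice. Cells of both genotypes were given 10 ng/mL of interferon gamma over 4 h, and 20% supernatant of a Klebsiella pneumoniae culture was then added for 6 h. There were 4 Batf2-/- and 4 WT libraries, each from cells pooled from 4 mice, and no unstimulated cells.

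The MS4A family includes CD20 of B cells (Ms4a1) and the beta chain of the high-affinity IgE receptor of mast cells (Ms4a2), both of which sit beside other receptors in the membrane and tune their signals. In macrophages, Ms4a4a is known to associate with the beta-glucan receptor Dectin-1, Ms4a6d has been linked with the receptor Vsig4 and restraint of the NLRP3 inflammasome, and Ms4a7 is widely used as a marker of mouse macrophages of monocyte origin. Ms4a8a is known from alternatively activated and tumour-associated mouse macrophages, while Ms4a4b is best known from mouse T cells, where it modulates activation.

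The Batf2-/- libraries carry the numbers 5 to 8 and the WT libraries 1 to 4, after their columns in the table. Batf2 itself was at 0 counts in Batf2-/- libraries 5 to 8, against 7361, 6691, 6054 and 4459 counts in WT libraries 1 to 4. Library totals were between 31730041 and 39888022 counts. By Xist and Y-linked counts, 2 pools of each genotype were female (libraries 5, 7, 1 and 3) and 2 were male. Libraries 8 (Batf2-/-) and 4 (WT) stood apart on the first principal component of log2 CPM, with scores of 28.87 and 43.9, where the other 6 libraries lay between -34.95 and 4.718. CPM is the count of a gene scaled to library size, here with TMM factors. Of 14 listed alveolar macrophage markers, all were tested, and 1 rose (Car4) and 0 fell by edgeR, where 0.55% of all tested genes rose and 0.559% fell. Without a call, Chil3 (6291 ± 2055 CPM in Batf2-/-, 3316 ± 613 CPM in WT) and Krt79 were higher without overlap of the groups. Pparg was lower without overlap, where 6.33% of tested genes did not overlap in either direction. The summed level of the 14 was 16283 to 22146 CPM in Batf2-/- and 13429 to 18525 CPM in WT. The markers of interstitial macrophages and monocytes summed to 9.75 to 13.2 CPM in Batf2-/- and 9.13 to 13.8 CPM in WT, with Cd163 and Lyve1 at 0 in all 8 libraries.

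The 8 genes lie in 0.537 Mb, from 11067471 (Ms4a8a) to 11604849 (Ms4a6d) of GRCm38 chromosome 19. The first of them starts 4.89 Mb beyond the end of Batf2. Ms4a8a, Ms4a7 and Ms4a6d are on the minus strand, and Ms4a4a, Ms4a4c, Ms4a4b, Ms4a6c and Ms4a6b on the plus strand. All 8 are annotated as protein coding. They hold close copies, and 2 pairs of plus-strand neighbours also have related promoters, shown here because the members of each pair differed in level in WT cells. Each RefSeq window of build GRCm38.p6 runs from 250 bases before to 50 after an annotated start site, on the plus strand. Windows of this length were found for 7 of the 8 genes, all but Ms4a6d. Capitals mark matches to GAAANNGAA, a short form of the element bound by interferon regulatory factors, or to the AP-1 element TGANTCA, both searched on both strands.
Ms4a4b, chr19:11443308-11443607: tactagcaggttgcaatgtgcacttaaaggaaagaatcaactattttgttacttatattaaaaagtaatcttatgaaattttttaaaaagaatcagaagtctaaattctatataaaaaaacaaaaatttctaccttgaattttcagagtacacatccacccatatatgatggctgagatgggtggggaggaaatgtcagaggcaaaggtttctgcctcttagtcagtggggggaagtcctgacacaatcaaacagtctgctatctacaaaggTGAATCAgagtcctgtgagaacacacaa
Ms4a4c, chr19:11407411-11407710: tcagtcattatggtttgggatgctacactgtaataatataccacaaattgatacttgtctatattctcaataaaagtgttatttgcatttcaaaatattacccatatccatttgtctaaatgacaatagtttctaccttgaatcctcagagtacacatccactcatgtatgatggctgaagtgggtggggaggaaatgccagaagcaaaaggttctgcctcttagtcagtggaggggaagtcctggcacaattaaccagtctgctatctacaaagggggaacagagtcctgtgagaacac
Ms4a6b, chr19:11518309-11518608: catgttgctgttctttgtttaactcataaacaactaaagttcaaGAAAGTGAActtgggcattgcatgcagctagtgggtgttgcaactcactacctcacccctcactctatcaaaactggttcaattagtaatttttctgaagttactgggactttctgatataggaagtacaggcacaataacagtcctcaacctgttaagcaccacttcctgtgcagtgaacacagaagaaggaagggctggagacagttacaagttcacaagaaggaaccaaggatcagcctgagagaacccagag
Ms4a6c, chr19:11469118-11469417: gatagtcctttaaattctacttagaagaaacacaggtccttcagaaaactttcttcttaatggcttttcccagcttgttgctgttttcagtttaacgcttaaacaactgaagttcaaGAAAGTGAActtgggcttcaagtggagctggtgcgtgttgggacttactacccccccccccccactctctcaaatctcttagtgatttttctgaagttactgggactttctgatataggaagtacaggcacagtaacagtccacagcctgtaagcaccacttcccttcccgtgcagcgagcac
The Ms4a4b and Ms4a4c windows shared 162 identical positions over a local alignment of 183 columns (88.5%). The Ms4a6b and Ms4a6c windows shared 188 over 232 columns (81.0%), with an unbroken identical run of 48 bases, and both held the same letters, GAAAGTGAA. That match began 206 bases before the start site in Ms4a6b and 133 bases before it in Ms4a6c. An AP-1 match lay 22 bases after the start site in Ms4a4b, and the Ms4a4c window held neither motif. GAAANNGAA occurs in 8.6% of 32851 promoter windows of the same length and TGANTCA in 7.8%. These matches describe letters only.

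The members fell into 3 classes of level, which differed little by genotype at the top and middle. To compare genes, CPM was divided by the length of the exon union in kilobases, giving RPKM, a level per length. Ms4a6d was at 209 ± 35.8 RPKM in Batf2-/- and 212 ± 40.8 RPKM in WT, and Ms4a8a at 164 ± 6.41 RPKM in Batf2-/- and 169 ± 12.0 RPKM in WT (SD, n = 4 each). In CPM they lay above 95.8% and 94.8% of the 11083 tested genes, and together made up 87.6% to 93.2% of the summed CPM of the 8 members in Batf2-/- and 90.2% to 92.8% in WT. Ms4a6d lay above Ms4a8a in Batf2-/-, where its lowest value was 176 RPKM and the highest of Ms4a8a 169.9 RPKM, but their WT ranges overlapped. Per longest annotated transcript the means of Ms4a6d and Ms4a8a were nearly level, at 256 and 249.6 RPKM in Batf2-/- and 259.8 and 258 RPKM in WT.

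The middle class was Ms4a6c, at 13.5 ± 5.40 RPKM in Batf2-/- and 13.2 ± 2.33 RPKM in WT, and Ms4a7, at 8.04 ± 3.22 RPKM in Batf2-/- and 7.69 ± 3.32 RPKM in WT. Their ranges overlapped in both genotypes, and Ms4a8a was 12.2-fold above Ms4a6c in Batf2-/- and 12.9-fold above it in WT. In the low class, Ms4a4c was at 0.672 ± 0.360 RPKM in Batf2-/- and 0.283 ± 0.0595 RPKM in WT. Ms4a6b was at 0.297 ± 0.203 RPKM in Batf2-/- and 0.0815 ± 0.0110 RPKM in WT, and Ms4a4b at 0.171 ± 0.160 RPKM in Batf2-/- and 0.0220 ± 0.0233 RPKM in WT. The ranges of these 3 overlapped among neighbours in the order in Batf2-/-, and were apart in WT. Per longest transcript the WT ranges of Ms4a6b (0.0712 to 0.0992 RPKM) and Ms4a4b (up to 0.103 RPKM) overlapped too. Ms4a4a (ENSMUSG00000101389, 11375523 to 11392790) had 0 counts in all 8 libraries, which allows up to 0.0747 to 0.0978 CPM in the Batf2-/- libraries and 0.0770 to 0.0929 CPM in the WT libraries (3 counts per library, counting error only).

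**Figure D1:**
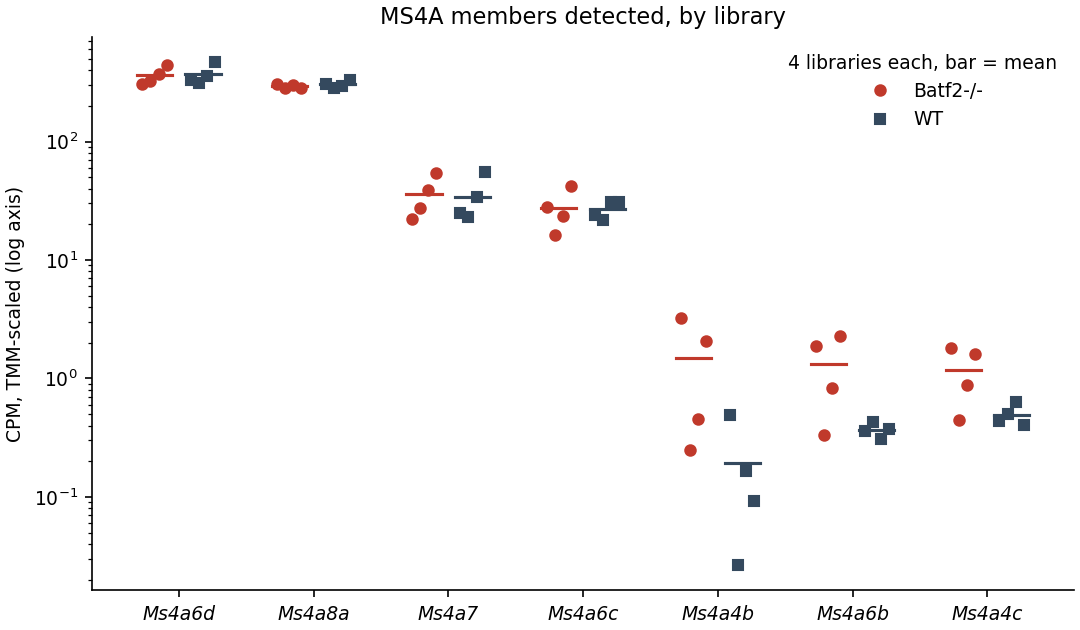
Level of the 7 detected MS4A members in each library, in TMM-scaled CPM on a log axis, with Batf2-/- libraries as circles left of WT libraries as squares, in order of library number, and a bar at each mean of 4 libraries. Ms4a6d and Ms4a8a lie near 300 CPM or above in both genotypes, while Ms4a4b, Ms4a6b and Ms4a4c lie below 4 CPM and spread most in Batf2-/-.

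No member was called different between the genotypes in the fit without a block, and 2 low members, Ms4a4b and Ms4a6b, were called with table column position as a block, as given with the low members. By edgeR's quasi-likelihood test with Benjamini-Hochberg adjustment over all tested genes, 0 of the 7 tested members had an adjusted p under 0.05, where 1.11% of all tested genes did (0.55% higher and 0.559% lower in Batf2-/-). At an unadjusted p under 0.05 there were 3 members, Ms4a4b, Ms4a4c and Ms4a6b, all higher in Batf2-/-, against 8.5% of all tested genes in either direction and 5.46% higher. By DESeq2, 2 members passed, Ms4a4b and Ms4a6b, both higher in Batf2-/-, where 2.71% of tested genes passed and 1.67% passed as higher, and 0 members passed by limma-voom (1.05% of tested genes) or by limma-voom with library weights (3.45%). The 2 genotypes did not separate for any of the 7 members, while 6.33% of tested genes had groups that did not overlap, 3.03% with Batf2-/- higher. The median log2 fold change, Batf2-/- over WT, was 0.06 over the 7 members and -0.01 over all tested genes.

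The most abundant members, Ms4a6d and Ms4a8a, differed little between the genotypes. Ms4a8a (ENSMUSG00000024730, 11067471 to 11081102) stood at 305, 284, 302 and 284 CPM in Batf2-/- libraries 5 to 8, and at 307, 280.5, 296 and 332 CPM in WT libraries 1 to 4. All 4 Batf2-/- libraries lay within the WT range. Its log2 fold change was -0.05 ± 0.10 (SE; 95% interval -0.27 to 0.18; edgeR adjusted p = 1.00), so differences beyond 0.827-fold or 1.13-fold lay outside the interval.

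Ms4a6d (ENSMUSG00000024679, 11586604 to 11604849) stood at 305, 326, 374 and 445 CPM in Batf2-/- libraries 5 to 8, and at 334, 310.2, 359 and 470.3 CPM in WT libraries 1 to 4. Libraries 8 and 4 were the highest of their genotype and the groups overlapped almost fully. The log2 fold change was -0.02 ± 0.17 (SE; 95% interval -0.40 to 0.36; edgeR adjusted p = 1.00).

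Ms4a7 (ENSMUSG00000024672, 11321039 to 11336146) stood at 22.1, 27.5, 39.2 and 54.4 CPM in Batf2-/- libraries 5 to 8, and at 24.7, 23.0, 34.0 and 55.2 CPM in WT libraries 1 to 4. Again libraries 8 and 4 were the highest of their genotype, and the groups overlapped. The log2 fold change was 0.06 ± 0.34 (SE; 95% interval -0.69 to 0.82; edgeR adjusted p = 1.00), an interval that leaves room for a 1.77-fold difference.

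Ms4a6c (ENSMUSG00000079419, 11469366 to 11482192), the neighbour of Ms4a6b with the related promoter shown above, stood at 27.9, 16.3, 23.6 and 42.5 CPM in Batf2-/- libraries 5 to 8, and at 24.1, 21.8, 31.0 and 31.1 CPM in WT libraries 1 to 4. The lowest and the highest of the 8 values were both from Batf2-/- libraries, 6 and 8. The log2 fold change was 0.03 ± 0.26 (SE; 95% interval -0.56 to 0.62; edgeR adjusted p = 1.00).

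**Figure D2:**
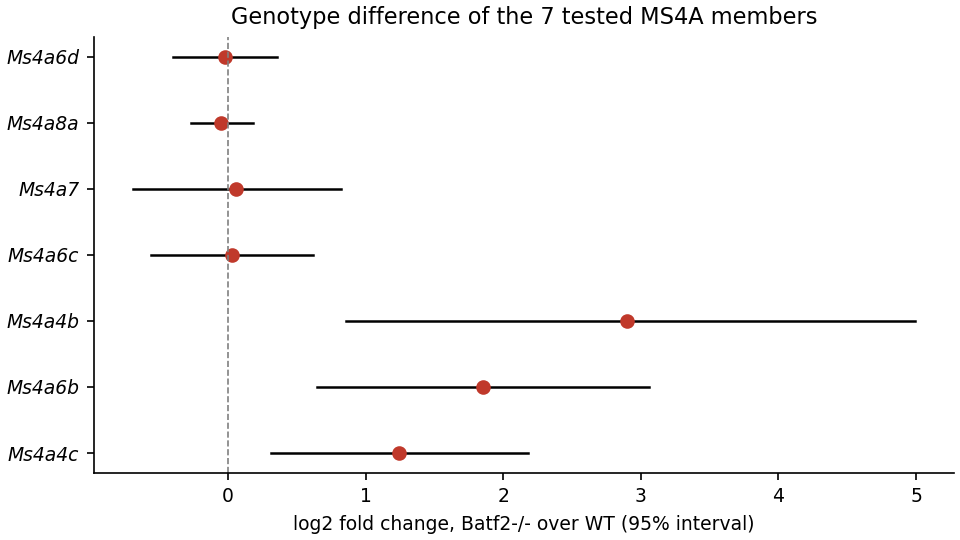
Log2 fold change of the 7 tested MS4A members, Batf2-/- over WT, with 95% intervals from the quasi-likelihood fit as bars. The 4 more abundant members lie between -0.05 and 0.06, and the 3 low members between 1.24 and 2.90 with wide intervals, none with an adjusted p under 0.05.

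The 3 low members averaged higher in Batf2-/-, with most of the difference in libraries 5 and 8. Ms4a4b (ENSMUSG00000056290, 11443553 to 11467055) had 129, 9, 18 and 64 counts in Batf2-/- libraries 5 to 8, or 3.21, 0.248, 0.450 and 2.09 CPM. In WT libraries 1 to 4 it had 19, 1, 6 and 3 counts, or 0.488, 0.0266, 0.166 and 0.0929 CPM. Libraries 6 and 7 lay below WT library 1, so the genotypes overlapped. By table column position Ms4a4b was higher in Batf2-/- in all 4 pairs, with ratios of 6.59, 9.34, 2.70 and 22.5 for libraries 5 over 1, 6 over 2, 7 over 3 and 8 over 4. The log2 fold change was 2.90 ± 0.92 (SE; unadjusted p = 0.0105, edgeR adjusted p = 0.278) with a 95% interval of 0.86 to 4.99.

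Ms4a6b (ENSMUSG00000024677, 11516512 to 11531256) had 76, 12, 33 and 70 counts in Batf2-/- libraries 5 to 8 (1.89, 0.331, 0.825 and 2.28 CPM). In WT libraries 1 to 4 it had 14, 16, 11 and 12 counts (0.359, 0.425, 0.305 and 0.372 CPM). Batf2-/- library 6 lay within the WT range and the other 3 above it, and the ratios by column position, in the same order, were 5.27, 0.779, 2.70 and 6.14. The log2 fold change was 1.85 ± 0.54 (SE; 95% interval 0.65 to 3.06; unadjusted p = 0.00660, edgeR adjusted p = 0.221). Without library 6 it passed, with a log2 fold change of 2.17 (edgeR adjusted p = 0.0440), where 0.689% of tested genes passed, 0.385% as higher.

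Ms4a4c (ENSMUSG00000024675, 11404770 to 11427246) had 72, 16, 35 and 49 counts in Batf2-/- libraries 5 to 8 (1.79, 0.442, 0.875 and 1.60 CPM). In WT libraries 1 to 4 it had 17, 19, 23 and 13 counts (0.436, 0.505, 0.638 and 0.402 CPM). The pattern over libraries was that of Ms4a6b, with library 6 inside the WT range and ratios by column position of 4.11, 0.874, 1.37 and 3.97. The log2 fold change was 1.24 ± 0.42 (SE; 95% interval 0.31 to 2.18; unadjusted p = 0.0146, edgeR adjusted p = 0.326).

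T cell receptor complex genes, as a sum, were also highest in libraries 5 and 8. The summed counts of Cd3d, Cd3e, Cd3g and Trac, a subset of the T and NK cell markers chosen after the values were seen, were 89, 10, 37 and 49 in Batf2-/- libraries 5 to 8 and 25, 3, 9 and 3 in WT libraries 1 to 4. In CPM these sums were 2.22, 0.276, 0.925 and 1.60 in Batf2-/- and 0.642, 0.0798, 0.250 and 0.0929 in WT, so libraries 5 and 8 were the highest, as for the 3 low members. The single genes did not all follow the sum. In library 8, Cd3d and Cd3g were at their highest, with 0.587 and 0.652 CPM. Cd3e and Trac, at 0.130 and 0.228 CPM in library 8, lay below WT library 1, at 0.180 and 0.231 CPM. In WT the sum varied several-fold, as did Ms4a4b (0.0266 to 0.488 CPM). Ms4a4c (0.402 to 0.638 CPM) and Ms4a6b (0.305 to 0.425 CPM) varied less there. Over the whole list of 10 markers the sum ran from 70.9 to 94.4 CPM in Batf2-/- and from 62.9 to 96.1 CPM in WT, nearly all of it Cd2, which averaged 79.1 ± 11.5 CPM in Batf2-/- and 74.3 ± 15.6 CPM in WT. Without Cd2 the other 9 summed to 4.19, 0.552, 1.55 and 2.90 CPM in Batf2-/- libraries 5 to 8, and to 1.03, 0.505, 0.583 and 0.464 CPM in WT libraries 1 to 4. The NK cell receptor gene Ncr1 was at 0 in all 8 libraries, and 1 of the 10 list members (Cd2) passed the expression filter, with 0 called. Neutrophil markers summed to 30.1 to 52.6 CPM in Batf2-/- and 18.4 to 32.0 CPM in WT, ranges that overlapped, with 0 of 3 tested called. Most of this was S100a8, at 29.2 ± 11.8 CPM in Batf2-/- and 19.2 ± 6.98 CPM in WT, while S100a9 had 1 count in each genotype. Ly6g and Retnlg were at 0 in all 8 libraries. Among the neutrophil markers, the chemokine receptor gene Cxcr2 averaged 6.03 ± 1.68 CPM in Batf2-/- and 2.89 ± 0.813 CPM in WT, without overlap. Mast cell markers summed to 0.0552 to 0.224 CPM in Batf2-/- and 0.0266 to 0.0770 CPM in WT, with 4 of 6 at 0 in all libraries. B cell markers summed to 75.1 to 114 CPM in Batf2-/- and 80.3 to 123 CPM in WT, nearly all of it Cd22, and the other 5 summed to 0.196 to 0.375 CPM in Batf2-/- (44 counts in all) and 0 to 0.205 CPM in WT (16 counts). Epithelial markers summed to 9.33 to 17.6 CPM in Batf2-/- and 12.0 to 17.7 CPM in WT. The part of other cells in the levels of Ms4a4b, Ms4a4c and Ms4a6b was not tested. In bulk RNA a difference in the number of cells of a type and in the RNA per cell cannot be told apart.

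**Figure D3:**
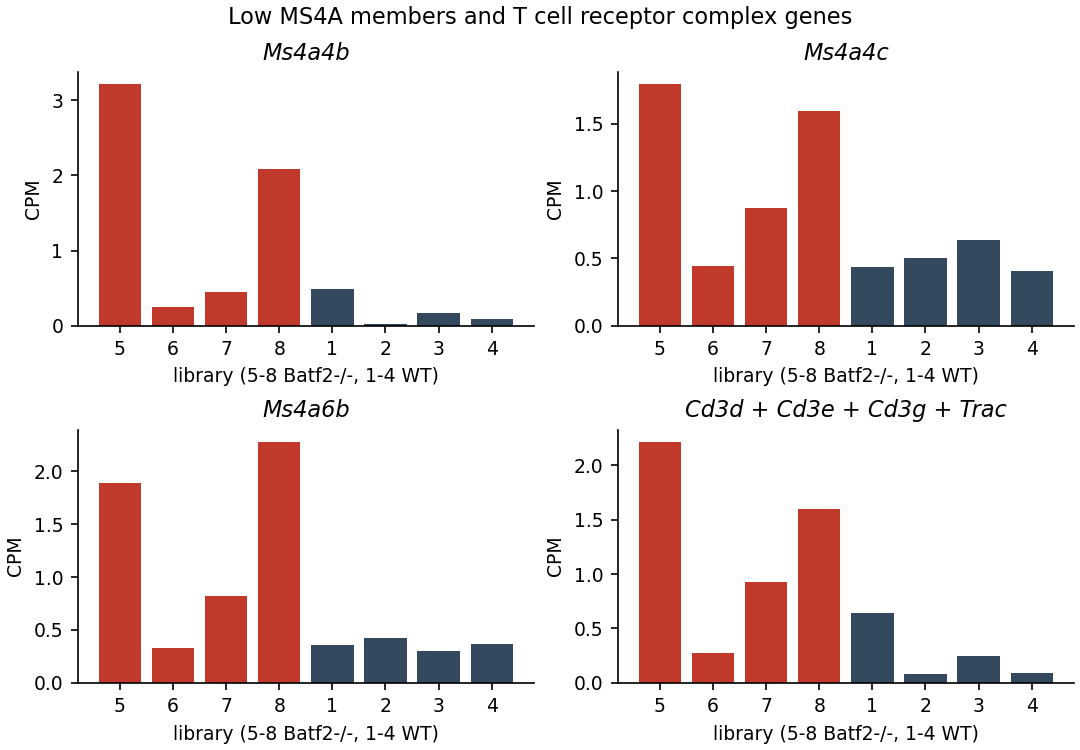
CPM of Ms4a4b, Ms4a4c, Ms4a6b and the summed CPM of Cd3d, Cd3e, Cd3g and Trac as bars, 1 per library, with Batf2-/- libraries 5 to 8 left of WT libraries 1 to 4. In all 4 panels libraries 5 and 8 are the highest, at 1.60 CPM or more, and library 6 is the lowest of the Batf2-/- libraries.

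Within the sex of the pools, with 2 libraries a side and no test, the low members kept their direction. The ratio of means, Batf2-/- over WT, was 5.60 in female and 19.6 in male pools for Ms4a4b, 4.09 and 3.28 for Ms4a6b, and 2.48 and 2.25 for Ms4a4c. For the abundant members the ratios were close to 1, at 0.980 in female and 0.987 in male pools for Ms4a6d and 1.04 and 1.05 for Ms4a7. They were 1.01 and 0.927 for Ms4a8a and 0.935 and 1.11 for Ms4a6c. With the sex of the pools as a term, 0 members passed, where 1.15% of tested genes did. Columns at the same position in the 2 genotypes deviated from their group means together, with correlations of 0.272 to 0.759. With this position as a block (a pairing the labels do not give), Ms4a4b and Ms4a6b passed, with log2 fold changes of 2.87 and 1.69 (edgeR adjusted p = 0.00107 and 0.0438), in a fit that called 12.5% of all tested genes, 6.97% as higher.

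Ms4a7 and Ms4a6d varied together between libraries, whatever the genotype. Over the 8 libraries their log2 CPM values had a Pearson r of 0.98 (exact permutation p = 1.24e-04, two-sided; 0.00260 adjusted over 21 member pairs) and a Spearman rho of 0.98 (exact permutation p = 3.97e-04; adjusted 0.00833). The permutations took the 8 libraries as exchangeable, though columns at the same position deviated together, so the permutation p-values of member pairs may be too small. Without libraries 4 and 8, the farthest from the median of Ms4a6d, r was 0.96, and with each genotype centred on its own mean it was 0.99. Both genes ran with the first principal component, whose scores were -34.95, -16.24, -1.849 and 28.87 in Batf2-/- libraries 5 to 8 and -16.72, -7.734, 4.718 and 43.9 in WT libraries 1 to 4. What that component stands for was not tested.

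Among the low members, Ms4a4c and Ms4a6b had a Pearson r of 0.95 (exact permutation p = 0.00499; adjusted 0.0523) and a Spearman rho of 0.64 (p = 0.0962; adjusted 0.604). Without libraries 5 and 8 their r was 0.74. Ms4a4b had an r of 0.86 with each of these 2 genes (exact permutation p = 0.00920 with Ms4a4c and 0.0125 with Ms4a6b; adjusted 0.0644 and 0.0656), which without libraries 5 and 8 was 0.32 with Ms4a4c and 0.31 with Ms4a6b, so these relations rest on those libraries. The Spearman rho values were 0.62 with Ms4a4c (exact permutation p = 0.115) and 0.52 with Ms4a6b (p = 0.197). Of the 21 pairs, Ms4a6d with Ms4a7 alone had an adjusted p under 0.05, by either measure.

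**Figure D4:**
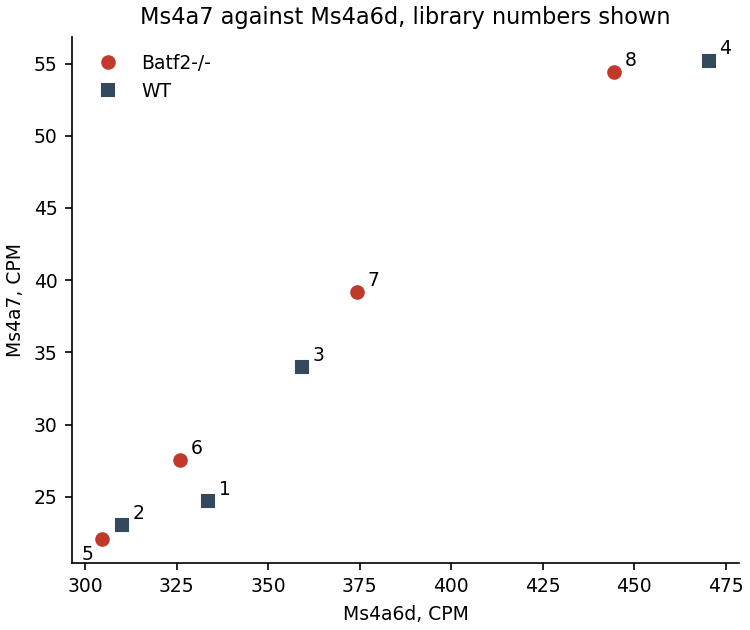
CPM of Ms4a7 (vertical axis) against CPM of Ms4a6d (horizontal axis) in the 8 libraries, with Batf2-/- as circles, WT as squares and library numbers beside the points. Both genotypes lie along 1 line, with library 8 (Batf2-/-) and library 4 (WT) at the top end, at 54.4 and 55.2 CPM of Ms4a7.

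The genes most like 2 of the members were taken as the 3 with the highest Pearson r of log2 CPM over the 8 libraries among 11083 genes, as a description with no test. For Ms4a6d, the most abundant member, they were Cd9, a tetraspanin (r = 0.999), Psmd9, a proteasome assembly factor (r = 0.998), and Atp6v0b, a subunit of the vacuolar proton pump (r = 0.998), each with a Spearman rho of 1.00. Cd9 averaged 3440 ± 909 CPM in Batf2-/- and 3564 ± 1011 CPM in WT. For Ms4a6b, the member with the smallest p, they were Pacsin1 (r = 0.966), an endocytic adaptor, Igf1 (r = 0.953), a growth factor, and Ms4a4c (r = 0.953), with Spearman rho values of 0.83, 0.95 and 0.64. Igf1 averaged 24.8 ± 4.22 CPM in Batf2-/- and 19.3 ± 2.06 CPM in WT (edgeR adjusted p = 0.499).

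Little of the rest of the family was detected. Of 18 further family genes listed, 13 were matched by symbol and the other 5 were not analysed here. Of the 13, 2 passed the expression filter and 0 were called. Ms4a10, Ms4a12, Ms4a13, Ms4a15, Ms4a5 and the granulocyte progenitor gene Ms4a3 had 0 counts in all 8 libraries. Ms4a1 (CD20) had 4, 0, 1 and 1 counts in Batf2-/- libraries 5 to 8 and 0 in each WT library, Ms4a2 had 2 counts in Batf2-/- library 6 alone, and Ms4a18 had 1 count in WT library 1 alone. Ms4a4d had 2, 1, 3 and 1 counts in Batf2-/- and 1, 0, 0 and 0 in WT. Ms4a14 had 8, 10, 10 and 9 counts in Batf2-/- and 10, 3, 6 and 9 in WT. The 2 tested genes were Tmem176a and Tmem176b, relatives of the family that lie outside the cluster and are known from dendritic cells. Tmem176a had 68, 12, 15 and 21 counts in Batf2-/- libraries 5 to 8 and 5, 5, 15 and 5 in WT libraries 1 to 4 (log2 fold change 1.89, edgeR adjusted p = 0.319). Tmem176b had 86, 9, 29 and 32 counts in Batf2-/- and 26, 14, 23 and 8 in WT (log2 fold change 1.10, edgeR adjusted p = 0.735). For both, library 5 was the highest.

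Genes whose products are reported to work with MS4A proteins, or in the pathways they modulate, were not called either. Of 10 listed, 8 were tested, and 0 rose and 0 fell by edgeR, where 1.11% of all tested genes were called. The median log2 fold change of the 8 was 0.10. Clec7a, the Dectin-1 gene, averaged 2872 ± 984 CPM in Batf2-/- and 2945 ± 862 CPM in WT (adjusted p = 1.00), and Syk, the kinase downstream of Dectin-1, 1071 ± 165 CPM in Batf2-/- and 852 ± 146 CPM in WT (adjusted p = 0.698). Grn, the progranulin gene, averaged 1077 ± 295 CPM in Batf2-/- and 1130 ± 276 CPM in WT (edgeR adjusted p = 1.00). Nlrp3, Vsig4 and Tnfrsf18 are named after their values were seen. Nlrp3, the inflammasome sensor, averaged 272 ± 64.1 CPM in Batf2-/- and 199 ± 46.0 CPM in WT (edgeR adjusted p = 0.643). Vsig4 had 0 counts in all 8 libraries. Tnfrsf18, the GITR gene whose product associates with Ms4a4b in mouse T cells, had 20, 9, 7 and 11 counts in Batf2-/- libraries 5 to 8 and 4, 5, 3 and 7 in WT libraries 1 to 4, and did not pass the filter.

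The chromosomal neighbourhood between Batf2 and the cluster was examined because the members lie on the chromosome of the deleted gene. Of 87 tested genes between them, 1 fell and 0 rose by edgeR (1.15%, against 1.11% of all tested genes). It was Majin, named after its values were seen, a meiotic telomere gene beside Batf2, with 0 counts in all Batf2-/- libraries and 0.488 ± 0.114 CPM in WT (adjusted p = 0.00784). Among the 27 tested genes within 1 Mb of the outermost members (the members left out, and some also among the 87), 0 were called and 5 (18.52%) had an unadjusted p under 0.05, against 12.64% of the 87, 10.24% of 410 on chromosome 19 and 8.5% of all tested genes. On the whole chromosome 1 gene rose and 9 fell (2.44%), against 1.11% of all tested genes. The 9 lower genes include Batf2 itself, and Majin and Snx15 close to it. The median log2 fold change was 0.01 over the 87 genes and 0.00 over the 27.

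**Figure D5:**
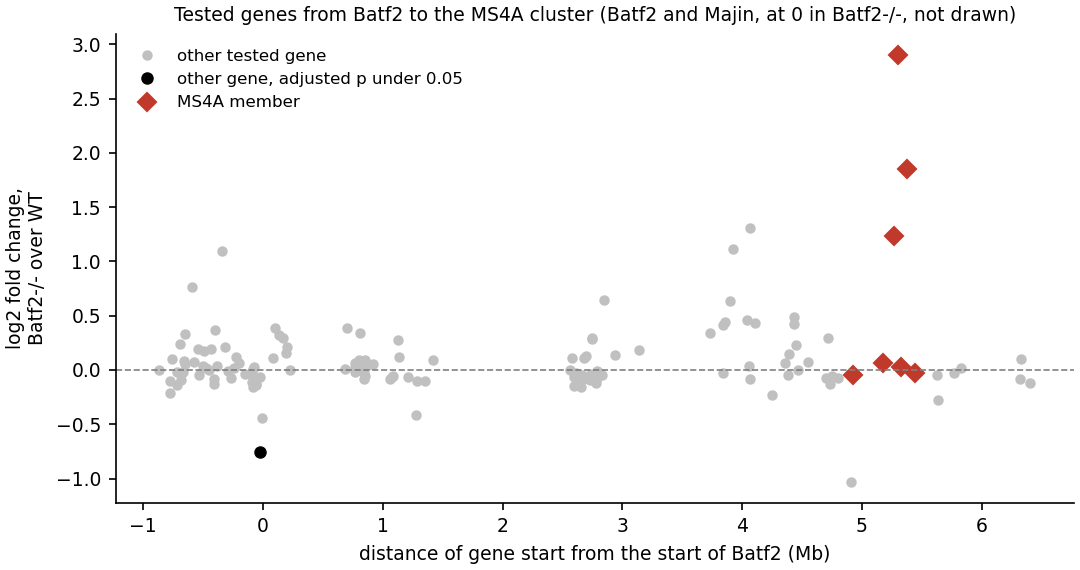
Log2 fold change, Batf2-/- over WT, of tested genes against the distance of their start from the start of Batf2 in Mb, with MS4A members as diamonds and other genes as circles (black where the adjusted p is under 0.05). Batf2 and Majin, at 0 in Batf2-/-, are not drawn. The black point beside Batf2 is Snx15 (log2 fold change -0.76), and no gene drawn within 1 Mb of the members is black.

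The count of a member could in part reflect its copies. Of the 50-base words in annotated transcripts, 10.5% of those of Ms4a6c, 8.19% of Ms4a4c, 3.57% of Ms4a6b, 2.54% of Ms4a6d, 2.40% of Ms4a4b and 0.31% of Ms4a7 also occurred in another gene. For Ms4a4b, Ms4a4c, Ms4a6b and Ms4a6c the paired neighbour was among those genes. None of those of Ms4a4a and Ms4a8a did. Ms4a6c had 3958 counts over the Batf2-/- libraries and 3879 over the WT libraries, while Ms4a6b had 191 over Batf2-/- and 53 over WT, and how the counting assigned shared reads is not given in the sources used here. Genes annotated on the opposite strand over Ms4a4c, Ms4a6b and Ms4a6c all had 0 counts.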

How the data were processed

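Messenger RNA libraries of 4 Batf2-/- and 4 WT pools of stimulated alveolar macrophages were made with a stranded kit (labels' protocols). Per the file headers, the table as deposited holds raw read counts for each gene, not normalized by the authors. The build was GRCm38 (mm10), per the submitters' processing notes, and the aligner, the counting tool and its strand setting are not given in the sources used here. The 8 columns were assigned to genotypes by the heading above them and carry no replicate number. Pairs of libraries within a genotype differed by more than sampling noise (chi-square over degrees of freedom of 30.5 or more). Each library is a pool from 4 mice, so errors and p-values describe variation among pools of mice.

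The genotype test was edgeR 4.0.16 in R 4.3.3 (robust quasi-likelihood, TMM, default expression filter), fitted on the whole table, which left 11083 genes. Intervals are 95% intervals of the fitted coefficient. Members and lists were chosen with earlier results of these data known. By rule, the genes named were all members, all family list genes, called members and up to 3 of the most abundant genes of other lists, and the 3 genes most similar to the most abundant member and to that with the smallest p. Further genes were named outside this rule with their values known. They include markers with few or no counts, markers whose groups did not overlap, and chromosomal neighbours. On counts simulated for 10999 genes of this comparison, 7.5%, 76.1% and 100% of genes changed 1.5-fold, 2-fold and 4-fold were recovered. The changed genes were drawn only from genes with a higher mean CPM than Ms4a4b, Ms4a4c and Ms4a6b, so these shares do not cover those members. Alternatives were DESeq2 1.42.0, limma-voom (limma 3.58.1), other factors, filters and thresholds, a column block, sex and left-out libraries. Positions and exon lengths came from GENCODE M21 (GRCm38), which held 48349 of the 48709 identifiers, and promoters from RefSeq GRCm38.p6.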

Additional observations from a re-analysis of the deposited data

How the results depend on the processing

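By the labels' replicate numbers, no paired analysis was possible because the table columns carry none. Columns were instead paired by position, whose deviations correlated at 0.598, 0.501, 0.272 and 0.759. In this paired fit, by edgeR, Ms4a4b (2.87, adjusted p = 0.00107) and Ms4a6b (1.69, adjusted p = 0.0438) passed. Of the members, 0 were called in 17 of 20 alternatives, 2 by DESeq2, 2 with the column block, and between 0 and 1 when single libraries were left out (1 without library 6). All calls were higher in Batf2-/-. Over all genes, 343 were called by DESeq2, 382 by limma-voom with library weights, 1390 with the column block, 206 without libraries 4 and 8, 47 at an adjusted p under 0.01, and 43 to 142 without single libraries, against 123. Ms4a4b, Ms4a4c and Ms4a6b stayed higher in Batf2-/- in all 19 alternatives that tested them, with log2 fold changes of 1.99 to 3.94, 0.55 to 1.51 and 1.14 to 2.17, and adjusted p of 0.00107 to 0.632, 0.0934 to 0.669 and 0.0249 to 0.550. Under the stricter filter these 3 were not tested. The alternative at an adjusted p under 0.01 kept the fold changes and p-values of the main edgeR fit, so it could add no call. The sign of members near 0 changed in several fits, without a call. Ms4a6c was at -0.04 with limma-voom, -0.29 with library weights, -0.03 with the column block and -0.17 without libraries 4 and 8. Ms4a6d was at 0.01 with library weights and 0.01 without libraries 4 and 8, where Ms4a8a was at 0.02. Without single libraries the log2 fold changes ran from -0.26 to 0.21 for Ms4a6c, -0.14 to 0.14 for Ms4a6d, -0.21 to 0.42 for Ms4a7 and -0.09 to 0.02 for Ms4a8a. With the longest transcript as length, 2 places in the order changed, Ms4a4b and Ms4a6b in Batf2-/-. The cause was not tested. Depth limits Ms4a4b, Ms4a4c and Ms4a6b, with 1 to 129 counts a library.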

Other observations

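Genes near the cluster with an unadjusted p under 0.05 numbered 5, 3 higher and 2 lower in Batf2-/-, and none was called. AW112010, an interferon-inducible transcript gene just before Ms4a8a, averaged 454 ± 197 CPM in Batf2-/- and 925 ± 295 CPM in WT (SD, n = 4; edgeR adjusted p = 0.241). Myrf, a membrane-bound transcription factor gene, averaged 8.67 ± 4.07 CPM in Batf2-/- and 3.49 ± 1.46 CPM in WT (edgeR adjusted p = 0.241), with groups that did not overlap. Tmem138, a ciliary membrane protein gene, averaged 8.01 ± 0.771 CPM in Batf2-/- and 5.72 ± 0.632 CPM in WT (edgeR adjusted p = 0.155), also without overlap. Cyb561a3, a cytochrome b561 family gene, averaged 56.0 ± 9.51 CPM in Batf2-/- and 41.7 ± 5.96 CPM in WT (edgeR adjusted p = 0.394). Stx3, a syntaxin gene, averaged 205 ± 17.0 CPM in Batf2-/- and 248 ± 24.5 CPM in WT (edgeR adjusted p = 0.525), lower without overlap.

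Clec9a, a dendritic cell marker, was the single called gene among 3 tested dendritic cell markers. It had 9, 13, 8 and 7 counts in Batf2-/- libraries 5 to 8 and 90, 90, 94 and 81 counts in WT libraries 1 to 4 (edgeR adjusted p = 1.20e-04), a pattern over libraries unlike that of any MS4A member, none of which separated the genotypes. Zbtb46, a transcription factor gene of the same list, averaged 1.92 ± 0.348 CPM in Batf2-/- and 0.937 ± 0.263 CPM in WT (edgeR adjusted p = 0.0965), higher without overlap, and Ccr7 averaged 2.65 ± 0.629 CPM in Batf2-/- and 3.01 ± 0.550 CPM in WT (edgeR adjusted p = 1.00). Siglech and Cd209a, also on that list, had 0 counts in all 8 libraries. No MS4A member had a library that stood apart from the other 3 of its genotype by Dixon's criterion, in 14 groups examined. The criterion looks for a single library apart, so it could not flag libraries 5 and 8 together, the highest for Ms4a4b, Ms4a4c and Ms4a6b.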
